A study of Drosophila melanogaster with 10 samples.

Results

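The cuticle protein genes of Drosophila melanogaster encode the structural proteins that epidermal cells secrete onto chitin to build the body wall. They were taken here as the genes whose symbol begins with Cpr, Lcp, Twdl, Ccp or Acp65 and whose reads summed to at least 10 over all libraries. Of 17402 genes in the table, 121 met the symbol rule and 106 also met the minimum, among 13551 genes that did so in all. Of the 15 genes left out for low counts, 4 had no read in any library (Cpr57A, Cpr65Ax1, TwdlR and TwdlQ). The gene whose symbol is Cpr alone, which encodes the reductase partner of cytochrome P450 enzymes, is no cuticle protein gene and was not included. At the minimum, Cpr76Bb was just inside with 10 counts, and Cpr23B and TwdlJ were just outside with 9 counts each. Lcp1Psi, by its symbol a pseudogene, met both rules with 55 counts and was kept.

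The measurements were polyadenylated RNA sequencing of whole female larvae in their 3rd instar, from 5 strains with 2 libraries each. The strains were labelled 51B, 51B/+, V966M, V966M/+ and w. The first 4 carry an allele of AGO2, an Argonaute protein that acts with small interfering RNAs, and w was the control. 51B is a null allele, V966M is an allele with an altered catalytic function, and /+ in a label denotes a heterozygote. The tissue in every library was the entire larva, so a lower level of a gene and a smaller share of the cells that express it could not be told apart. The design describes the 2 libraries of a strain as biological replicates, and they carry the numbers 3 and 4. The strain labels and the sample titles conflict, since the titles of the samples labelled 51B/+ and V966M/+ repeat the allele, as for a homozygote. AGO2 itself was lowest in the libraries labelled 51B/+, at 3.85 and 2.84 CPM, against 229 and 152 CPM in w, whereas those labelled 51B had 105 and 99.7 CPM. CPM are counts scaled to the library's size, and were adjusted between libraries with TMM factors. Because AGO2 went against the labels of the null allele, each strain is named below as it was labelled, and every direction follows those labels. V966M changes a single amino acid, and the AGO2 levels of the libraries labelled V966M and V966M/+, between 163 and 249 CPM, give no check of their labels.

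Library totals ran from 22337432 to 60886803 counts, and replicate 3 was the deeper library in every strain. A count of 0 allowed a level of up to 0.0513 CPM in the deepest library and 0.149 CPM in the shallowest, and these limits cover counting error only. The libraries labelled V966M/+ stood apart in their tissue markers. The summed level of 6 muscle markers was 12558 and 4480 CPM there, against 18734 to 36946 CPM in the other 8 libraries. For 8 markers of epidermis and trachea, the tissues that lay down cuticle, the sums were 885 and 592 CPM against 931 to 1891 CPM. All 8 epidermal and tracheal and all 6 muscle markers that were in the table were measured above the minimum. Fat body markers (5 genes) summed to 49558 and 45857 CPM in V966M/+, against 52782 to 79244 CPM in the other 8 libraries. Markers of the salivary gland (7 genes) summed to 10225 and 10529 CPM in V966M/+, within the range of all libraries, 9462 to 19852 CPM. The testis list (15 of 16 genes tested) was highest in the library labelled 51B/+, replicate 3, at 27.4 CPM, against 4.03 to 11.1 CPM in the other 9.

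Insect cuticle is a layered composite of chitin fibres and proteins that is secreted by the epidermis and the tracheal cells. Most of its proteins, the Cpr, Lcp, Ccp and Acp genes among them, carry the Rebers and Riddiford consensus, a domain that binds chitin. The Tweedle proteins (Twdl) are a separate family, and alleles of Tweedle genes alter the shape of the larval body. Larvae shed and rebuild the cuticle at each moult, and different genes serve the larval, pupal and adult cuticles. Lcp1, Lcp2, Lcp3 and Lcp4 are the classical larval cuticle protein genes of the last instar, and Acp65Aa encodes a protein of the adult cuticle.

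The 106 genes comprised 62 of 70 Cpr genes, 21 of 26 Twdl genes, 16 of 17 Lcp genes, 6 of 7 Ccp84A genes and Acp65Aa. By chromosome arm, 41 lay on 3L, 27 on 2R, 26 on 3R, 8 on X and 4 on 2L. They fell into 42 groups when neighbours within 20 kb were joined. The largest was the Lcp65A cluster on 3L, with 17 of its 19 genes above the minimum, between 6130386 (the start of Lcp65Ag3) and 6161589 (the end of Cpr65Az) in the dm6 assembly. Exons of 7 of the genes overlapped those of another counted gene (on the opposite strand in every case but Twdlalpha), and reads were counted without strand. A mean level of at least 1 CPM was reached by 64 genes, of which 17 had at least 100 CPM, and 42 were below 1 CPM.

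The larval cuticle genes dominated in all libraries. Reads from the 106 genes made up between 1.96% and 4.26% of all counts. The lowest shares were those of the libraries labelled V966M/+, at 2.24% and 1.96%, against 2.46% and 2.81% in w. The highest were in V966M replicate 4 (4.26%) and 51B replicate 4 (4.18%). Lcp1, Lcp2, Lcp3 and Lcp4, which lie close together on 2R (8430115 to 8438495) with Lcp1Psi between Lcp1 and Lcp2, supplied most of this. Their summed level was 27585 and 37776 CPM in 51B, 20584 and 27387 CPM in 51B/+, 24618 and 37009 CPM in V966M, and 12763 and 9561 CPM in V966M/+, against 17425 and 22561 CPM in w. Only the libraries labelled V966M/+ were below both libraries of w. The other 102 genes together summed to between 5611 CPM (w replicate 3) and 10071 CPM (V966M replicate 4). In V966M/+ they summed to 6761 and 5986 CPM, against 5611 and 6221 CPM in w, so these strains overlapped.

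Per kilobase of exon, the 10 genes with the highest mean level were, from the top, Lcp3 (10797 CPM per kb), Lcp4 (10340), Lcp9 (4144), Lcp1 (3902), Lcp2 (3776), Cpr49Ac (1335), Cpr78E (957), Cpr47Ec (773), Cpr47Eg (767) and Cpr60D (391). Neighbours in this order were close where the libraries spread widely. Lcp3 ranged from 1909 to 14648 CPM over the 10 libraries and Lcp4 from 3327 to 13597 CPM, and the ratio of Lcp3 to Lcp4 counts lay between 0.574 and 1.32. Lcp1 and Lcp2 had a ratio of counts between 0.82 and 2.22.

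**Figure D1:**
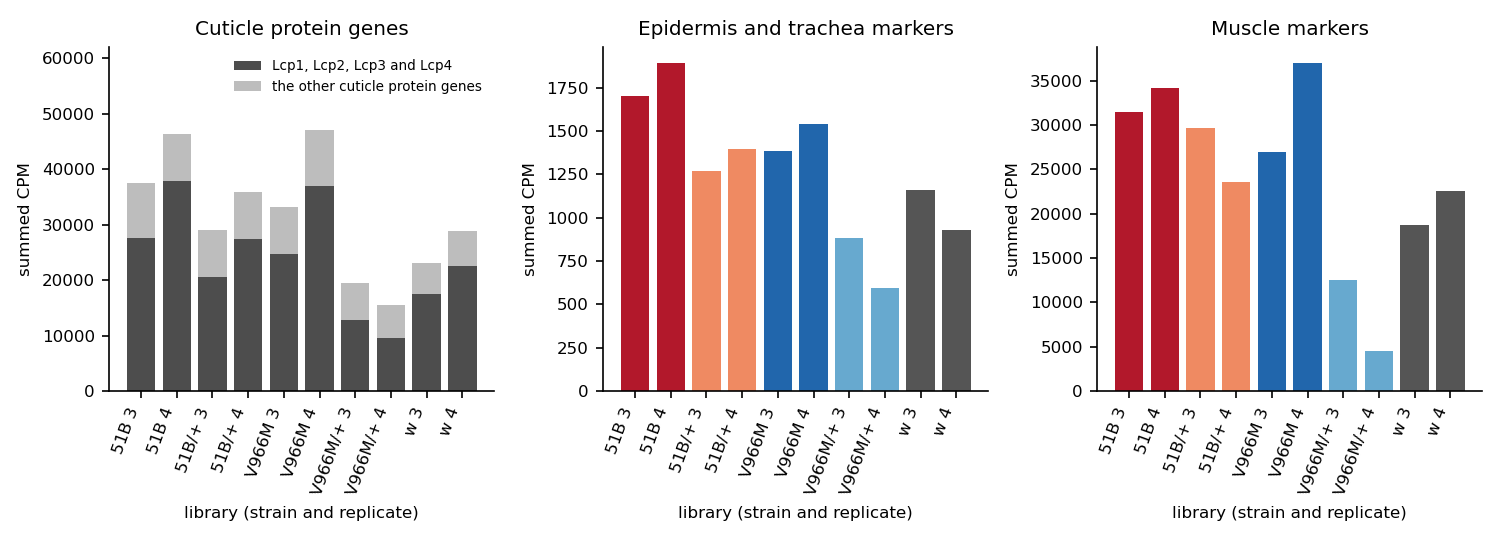
Summed level (CPM, vertical axes from 0) in each of the 10 libraries, named by labelled strain and replicate. The left panel stacks Lcp1 to Lcp4 and the other cuticle protein genes, the middle panel shows the epidermis and trachea markers, and the right panel the muscle markers. In all 3 panels the full bars of both libraries labelled V966M/+ were below those of w, with replicate 4 the lowest. The part from the other cuticle protein genes overlapped between V966M/+ and w.

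Across the 64 genes that averaged at least 1 CPM, one library was at the low end far more often than the rest. The library V966M/+ replicate 4 was the lowest of 10 for 44 of the 64 genes (68.8%), against 18.3% of all genes at that level. The highest library was most often 51B replicate 3, for 22 of the 64 genes (34.4%), against 8.57% of all genes. The number of cuticle protein genes at 1 CPM or more was 51 and 46 in V966M/+, against 59 and 56 in w, and it was between 60 and 63 in the other strains.

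**Figure D2:**
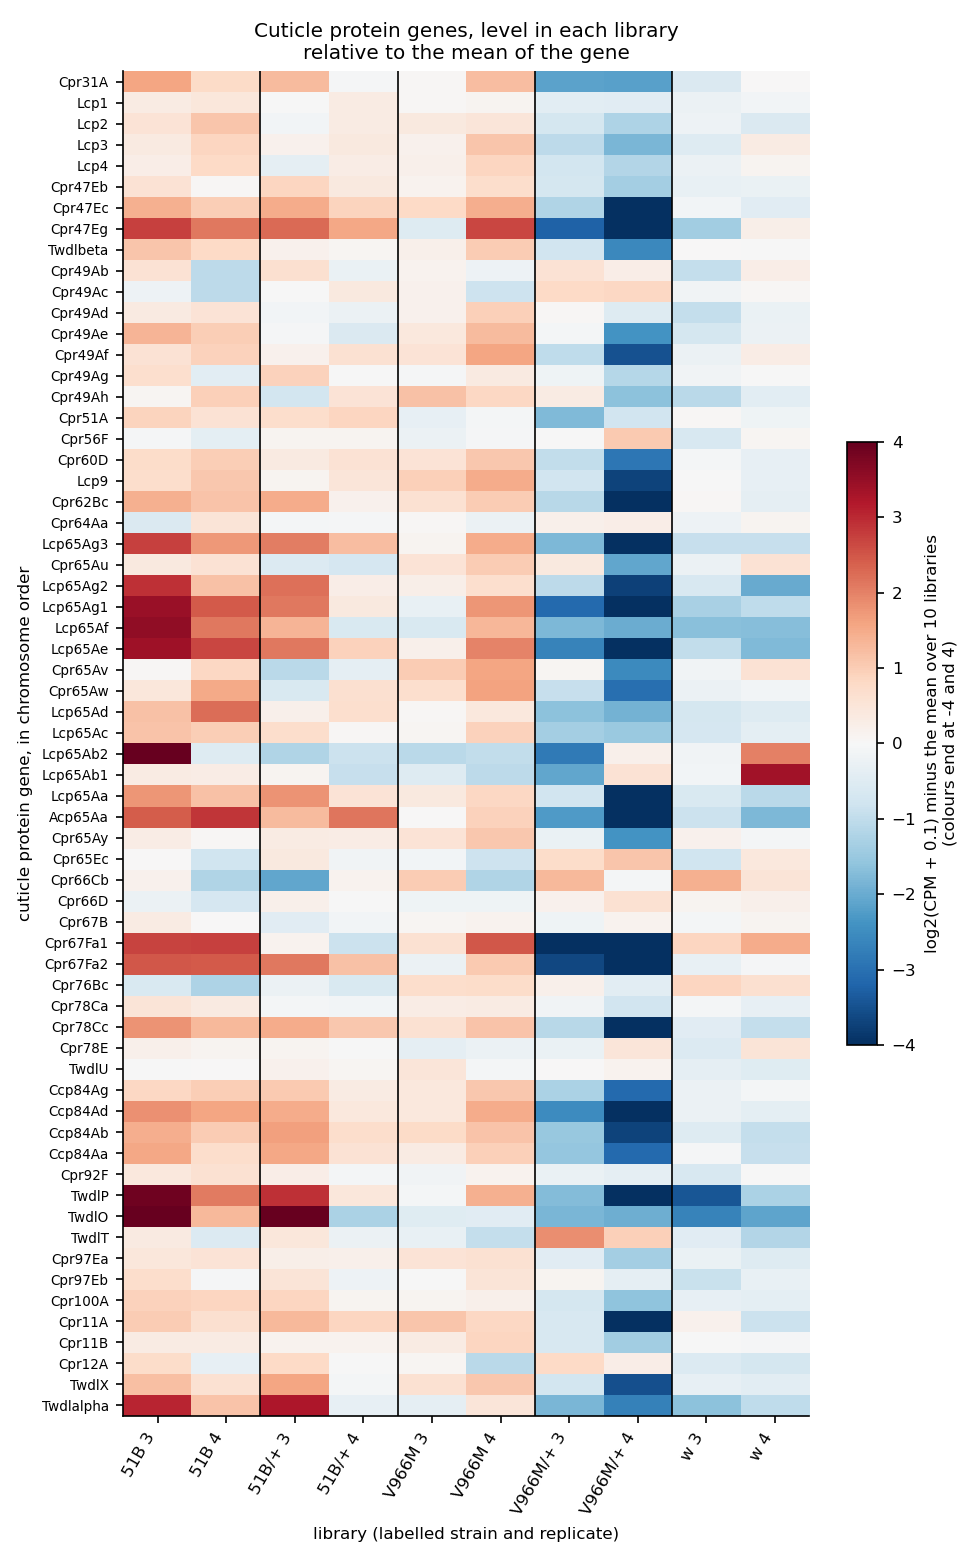
Level of the 64 cuticle protein genes that averaged at least 1 CPM, in each library, as log2(CPM + 0.1) minus the gene's mean over 10 libraries, with genes in chromosome order and libraries by labelled strain and replicate. Blue is below and red above the gene's mean; the column of V966M/+ replicate 4 is blue for most genes, while Cpr49Ac, Cpr56F and TwdlT are red in it.

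The 2 libraries of a strain differed more for these genes than for genes at large. Over 2-fold differences between the libraries of a strain were found for 34 of the 64 genes in V966M/+ (53.1%, against 6.3% of all genes that averaged at least 1 CPM), and 30 of the 34 were higher in replicate 3. The number was 14 in 51B (21.9%, against 2.99% of all genes), 17 in 51B/+ (26.6%, against 5.47%), 14 in V966M (21.9%, against 5.45%) and 9 in w (14.1%, against 4.1%). The direction also differed between strains. In V966M, 12 of the 64 genes were higher in replicate 3 than in replicate 4, while in V966M/+ it was 53. With 2 libraries a strain, such gaps enter every comparison below.

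The 4 genes with the widest gaps were TwdlO, Lcp65Ab2, Lcp65Ag3 and TwdlP. TwdlO, a Tweedle gene on 3R, had 24.2 and 0.306 CPM in 51B/+ and 28.7 and 2.29 CPM in 51B, against 0.0548 and 0.127 CPM in w, which is 3 counts in each w library. Both of its high values came from replicate 3. TwdlP, its neighbour on 3R, had 27.9 and 7.85 CPM in 51B, 14.1 and 2.45 CPM in 51B/+, and 0.459 and 0 CPM (21 and 0 counts) in V966M/+, against 0.073 and 0.675 CPM in w. Lcp65Ag3 had 2.84 and 0.0909 CPM in V966M/+, the second of these from 3 counts. Lcp65Ab2 had 82.1 CPM in 51B replicate 3 and between 0.175 and 7.68 CPM in the other 9 libraries. A similar lone value was 64.9 CPM of Lcp65Ab1 in w replicate 4, against 1.38 to 9.18 CPM elsewhere. Lcp65Ab1 was named after its values were seen. Lcp65Ab1 and Lcp65Ab2 are close copies, and reads common to both could have been assigned to either or lost.

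Which genes differed between strains was tested with edgeR's quasi-likelihood test on all 13551 genes, with Benjamini-Hochberg adjustment over all of them and a call at an adjusted p under 0.1. The 106 genes are described by counts and medians beside those of all genes tested.

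In 51B against w, 3 cuticle protein genes were called, all of them higher in 51B and all in the Lcp65A cluster. This is 2.83% of the 106, against 0.738% of all genes called in either direction and 0.421% called higher. Lcp65Ad (3L, 6143395 to 6144101), a larval cuticle protein gene, had 4.23 and 8.9 CPM in 51B, against 1.08 and 1.27 CPM in w. Its log2 fold change was 2.48 (SE 0.39, adjusted p = 0.0446). Lcp65Ac, the next gene along (3L, 6144819 to 6145393), had 111 and 100.4 CPM in 51B, against 31.7 and 38.8 CPM in w, a log2 fold change of 1.59 (SE 0.31, adjusted p = 0.0839). For both genes the libraries of the strains did not overlap, which the rule for naming called genes required. Acp65Aa (3L, 6152050 to 6152745), the adult cuticle protein gene, had 18.0 and 24.6 CPM in 51B, against 1.75 and 0.886 CPM in w, a log2 fold change of 3.95 (SE 0.71, adjusted p = 0.0818).

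As a whole the 106 genes had a median log2 fold change of 1.03 in 51B against w, against -0.02 for all genes tested, and 86 of the 106 were positive (81.1%, against 46.2% of all genes). In the Lcp65A cluster 16 of 17 fold changes were positive with a median of 2.32, and the exception was Lcp65Ab1. Larger fold changes than those called were found among genes that did not pass. Lcp65Ag1 had 71.4 and 35.3 CPM in 51B, against 2.56 and 3.08 CPM in w (log2 fold change 4.25, SE 0.90, edgeR adjusted p = 0.135). Lcp65Ae had 133 and 80.6 CPM in 51B, against 6.24 and 3.59 CPM in w (log2 fold change 4.42, SE 1.01, adjusted p = 0.161). In the same comparison the sum of the epidermal and tracheal markers was 1704 and 1891 CPM in 51B, against 1162 and 931 CPM in w, and none of those 8 genes was called. Muscle markers summed to 31515 and 34201 CPM in 51B, against 18734 and 22551 CPM in w. For fat body markers the sums were 68076 and 79244 CPM, against 52782 and 53177 CPM. No muscle or fat body marker was called. The summed level of 5 gut markers was 1160 and 1680 CPM in 51B, against 3388 and 3558 CPM in w, and Jon65Aiii, a gene for a digestive protease, was called lower (log2 fold change -1.59, adjusted p = 0.054). The part of these tissues in the result was not tested. The count of 3 rested on each library, being 1 without 51B replicate 3 (0.0894% of all genes called) and 0 without 51B replicate 4, w replicate 3 or w replicate 4 (0.111%, 0.112% and 0.259% of all genes). It was 34 of the 94 genes tested when only the libraries of 51B and w were fitted, where 5.74% of all genes were called. With DESeq2 it was 20 (19 higher and 1 lower), and 5.2% of the genes given an adjusted p were called.

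**Figure D3:**
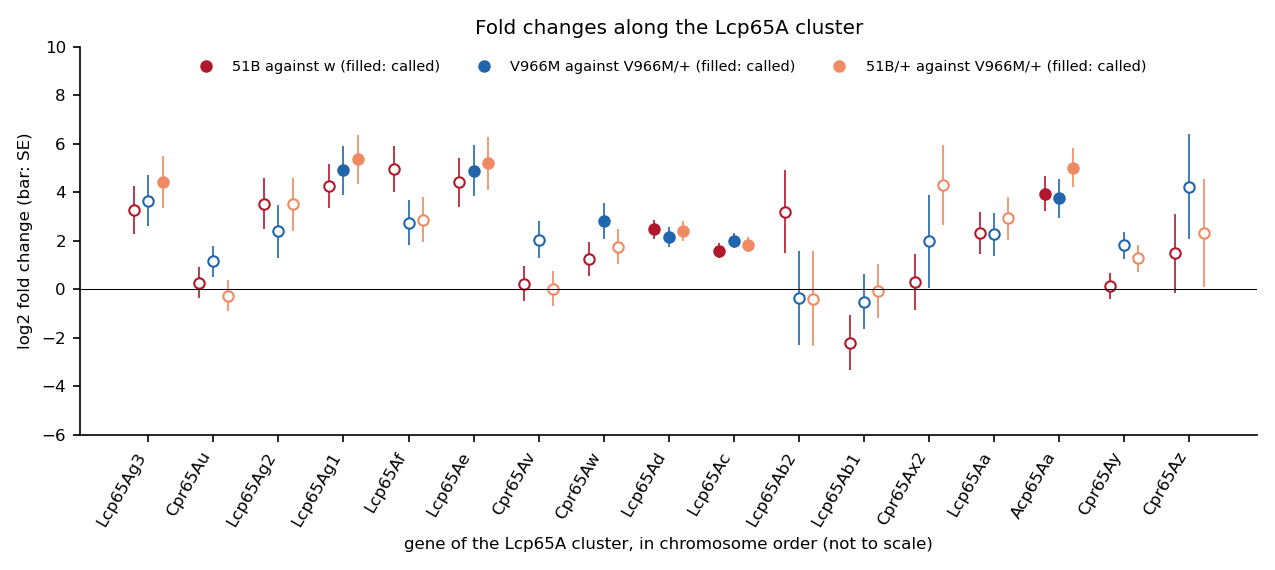
Log2 fold change (points, with SE bars) of the 17 tested genes of the Lcp65A cluster in chromosome order, not to scale, for 51B against w, V966M against V966M/+ and 51B/+ against V966M/+; filled points were called at an adjusted p under 0.1. Lcp65Ad, Lcp65Ac and Acp65Aa are filled in all 3 comparisons, and the points of Lcp65Ab1 lie below 0.

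In 51B/+ against w, no cuticle protein gene was called by edgeR, with a smallest adjusted p of 0.114, against 1.79% of all genes. At an unadjusted p under 0.05 there were 28 of the 106, against 11.7% of all genes, and 25 of the 28 were higher in 51B/+. DESeq2 called 8, all higher, against 4.72% of all genes. The 106 genes had a median log2 fold change of 0.57, against 0.02 for all genes. In the Lcp65A cluster 11 of 17 fold changes were positive, and they ran from -2.81 to 3.05. Lcp65Ae, which was not called, had 54.3 and 23.6 CPM in 51B/+, against 6.24 and 3.59 CPM in w (log2 fold change 2.97, SE 0.95, edgeR adjusted p = 0.288). The testis list was highest in 51B/+ replicate 3 (27.4 CPM), and Mst87F, a gene of the male germ line, was called higher in this comparison (log2 fold change 2.76, adjusted p = 0.0118). Epidermal and tracheal markers summed to 1270 and 1396 CPM in 51B/+, against 1162 and 931 CPM in w. For muscle markers the sums were 29610 and 23591 CPM, against 18734 and 22551 CPM. Fat body markers summed to 64749 and 70137 CPM, against 52782 and 53177 CPM. The gut markers summed to 581 and 1460 CPM in 51B/+, against 3388 and 3558 CPM in w, and Jon65Aiii was called lower (log2 fold change -2.44, adjusted p = 0.00403). The part of these transcripts in the result was not tested. Without replicate 4 of 51B/+ the edgeR count was 8, where 6.3% of all genes were called. With only the libraries of 51B/+ and w in the fit the count was 3, where 1.07% of all genes were called.

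In V966M against w the edgeR count was also 0, with a smallest adjusted p of 0.924, where 0.125% of all genes were called. At an unadjusted p under 0.05 there were 21 of the 106, against 4.43% of all genes, 20 of them higher in V966M. DESeq2 called none of them and 0.568% of all genes. For the 106 the median was 0.72 on the log2 scale, against -0.02 for all genes, and 76 were positive (71.7%, against 46.1% of all genes). Cpr47Eg, which encodes a cuticle protein with a chitin-binding domain, had 82.9 and 745 CPM in V966M, against 44.5 and 139 CPM in w, so that the strains overlapped. Muscle markers summed to 26987 and 36946 CPM in V966M, against 18734 and 22551 CPM in w. For epidermis and trachea the sums were 1384 and 1540 CPM, against 1162 and 931 CPM. Fat body gave 62930 and 66714 CPM, against 52782 and 53177 CPM, and gut 2040 and 2465 CPM, against 3388 and 3558 CPM. The part of these tissues in the result was not tested.

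The libraries labelled V966M/+ had the lowest summed level of the cuticle protein genes. In V966M/+ against w, 3 genes passed the test (2.83%, against 1.14% of all genes). Of these, 2 were lower (0.723% of all genes were called lower) and 1 was higher (0.421% of all genes were called higher). Cpr67Fa1 (3L, 10889990 to 10890700) had 2.08 and 1.06 CPM in V966M/+, against 96.5 and 148 CPM in w, a log2 fold change of -6.26 (SE 0.75, adjusted p = 0.0091 by edgeR's quasi-likelihood test). Its neighbour Cpr67Fa2 (3L, 10891714 to 10892516) had 4.13 and 1.45 CPM in V966M/+, against 42.5 and 50.7 CPM in w, a log2 fold change of -4.04 (SE 0.60, adjusted p = 0.0232). Both libraries of V966M/+ were far below every other library for these genes. TwdlT (3R, 27049220 to 27051004), a Tweedle gene, was higher, with 8.06 and 4.27 CPM in V966M/+, against 1.53 and 0.886 CPM in w (log2 fold change 2.31, SE 0.48, adjusted p = 0.0872).

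In V966M/+ against w the 106 genes had a median of -0.41 on the log2 scale, against 0.00 for all genes, and 35 were positive (33%, against 48% of all genes). All 17 tested genes of the Lcp65A cluster had a negative fold change, with a median of -1.45. In this comparison the sum of the muscle markers was 12558 and 4480 CPM in V966M/+, against 18734 and 22551 CPM in w, and none of the 6 was called. The gut markers summed to 1719 and 1868 CPM in V966M/+, against 3388 and 3558 CPM in w, and none of the 5 was called. Mst87F of the testis list was called higher (log2 fold change 2.64, adjusted p = 0.0175). Their part in the result was not tested. The values depended on which library of V966M/+ was used. Without replicate 3 the median was -1.08, and TwdlT was no longer called (log2 fold change 1.79). Without replicate 4 the median was -0.14, and Cpr67Fa1 and Cpr67Fa2 were no longer called. The calls of TwdlT and Cpr67Fa2 were also lost without w replicate 3 or w replicate 4. DESeq2 called 14 (13 lower, 1 higher), where it called 5.68% of all genes.

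V966M against V966M/+ gave the longest list, with 26 of the 106 genes called (24.5%, against 6.7% of all genes). Of these, 25 were higher in V966M (5.67% of all genes were called higher) and 1, TwdlT, was lower (1.03% of all genes were called lower). The 25 higher genes included 11 of 62 Cpr genes, 8 of 16 Lcp genes, 4 of 6 Ccp84A genes, 1 of 21 Twdl genes (Twdlbeta) and Acp65Aa. All 106 together had a median of 0.99 on the log2 scale, against -0.02 for all genes.

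The 4 largest called fold changes that were named by rule were those of Cpr67Fa1, Cpr47Eg, Lcp65Ag1 and Lcp65Ae. Cpr67Fa1 had 82.1 and 299 CPM in V966M, against 2.08 and 1.06 CPM in V966M/+, a log2 fold change of 6.90 (SE 0.77, adjusted p = 0.0155). Cpr47Eg (2R, 11277957 to 11278445) had 82.9 and 745 CPM in V966M, against 12.4 and 1.24 CPM in V966M/+ (log2 fold change 5.91, SE 1.44, adjusted p = 0.0771). For Cpr47Eg the replicates differed by 8.99-fold in V966M and by 9.95-fold in V966M/+. Lcp65Ag1 (3L, 6134697 to 6135274) had 5.17 and 21.9 CPM in V966M, against 0.655 and 0.182 CPM in V966M/+ (log2 fold change 4.91, SE 1.0, adjusted p = 0.0527). Lcp65Ae (3L, 6137583 to 6138118) had 14.5 and 49.5 CPM in V966M, against 1.9 and 0.121 CPM in V966M/+, the last from 4 counts (log2 fold change 4.90, SE 1.07, adjusted p = 0.0609). The strains did not overlap for any of these genes, which the rule for naming called genes required. TwdlT had 1.73 and 1.06 CPM in V966M, against 8.06 and 4.27 CPM in V966M/+, and its log2 fold change was -2.11 (SE 0.47, adjusted p = 0.0547).

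The abundant larval genes were among those called, with smaller fold changes. Lcp3 had 7675 and 14648 CPM in V966M, against 3285 and 1909 CPM in V966M/+ (log2 fold change 2.10, SE 0.47, adjusted p = 0.0532). Lcp4 had 8644 and 13597 CPM in V966M, against 4528 and 3327 CPM in V966M/+ (log2 fold change 1.5, SE 0.39, adjusted p = 0.0784). Lcp2 and Lcp9 were also called, with log2 fold changes of 1.38 and 2.83. Lcp1, which lies near Lcp2, had 4174 and 4349 CPM in V966M, against 3004 and 2980 CPM in V966M/+, and was not called. Lcp9 had 717 and 93.5 CPM in V966M/+, a wide gap between replicates.

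The Ccp84A genes on 3R, a cluster of cuticle protein genes within the Antennapedia complex, gave like values. All 6 measured members had a positive fold change in V966M against V966M/+, with a median of 3.39, and 4 were called. Ccp84Ad (3R, 6692732 to 6693527) had 2.89 and 6.06 CPM in V966M, against 0.284 and 0.0303 CPM in V966M/+, from 13 and 1 counts (log2 fold change 4.66, SE 0.70, adjusted p = 0.0346). The 3 other called members were Ccp84Ab, Ccp84Aa and Ccp84Ag, with log2 fold changes of 3.33, 3.08 and 2.76.

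Some abundant genes did not follow. Cpr49Ac (2R, 12386666 to 12390057), which encodes a cuticle protein with a chitin-binding domain, had 2976 and 1462 CPM in V966M, against 4522 and 4677 CPM in V966M/+, and its libraries labelled V966M/+ were the highest of the 10. Its log2 fold change was -1.05 (SE 0.40, edgeR adjusted p = 0.204). Cpr78E had 339 and 363 CPM in V966M, against 360 and 603 CPM in V966M/+ (log2 fold change -0.46, SE 0.35, adjusted p = 0.538). Over the Twdl genes the median log2 fold change was 0.19, with 11 of 21 positive. Some of them were near the count minimum, such as TwdlH with 11 counts and TwdlZ with 15. The Twdl genes did not all vary alike. All 4 of the cluster with TwdlX on X were positive (median 2.63). In the cluster from TwdlM to TwdlH on 3R, 3 of 8 were positive (median -0.10).

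In V966M against V966M/+ the muscle markers also differed, with a summed level of 26987 and 36946 CPM in V966M, against 12558 and 4480 CPM in V966M/+, and 4 of 6 were called higher (Mlc2, Act57B, up and wupA). Of the 8 epidermal and tracheal markers 3 were called higher (verm, serp and Gasp). These 3 are also in lists given below, verm and serp for chitin and Gasp for the cuticle matrix. The 8 epidermal and tracheal markers summed to 1384 and 1540 CPM in V966M, against 885 and 592 CPM in V966M/+. The part of these tissues in the result was not tested. The count of 26 rested on single libraries. It was 0 without V966M/+ replicate 4 and 1 without V966M replicate 4, where 0.178% and 0.141% of all genes were called. It was 28 without V966M replicate 3 and 37 without V966M/+ replicate 3, where 12.1% and 6.86% of all genes were called. When only the 4 libraries of these strains were fitted it was 0, and 0.141% of all genes were called. DESeq2 called 43 (40 higher, 3 lower), where it called 15.8% of all genes.

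**Figure D4:**
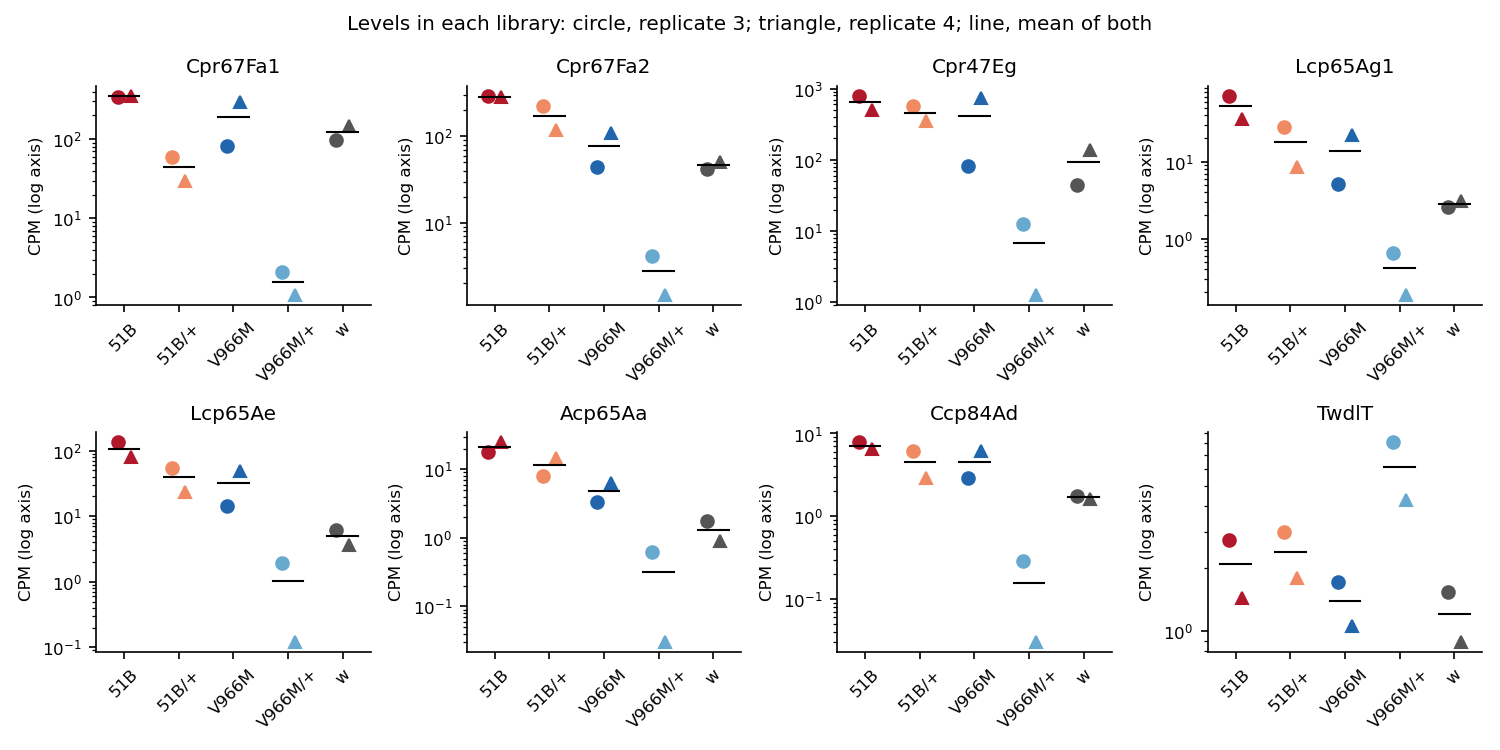
Level in CPM (log axes) of 8 called cuticle protein genes in each library, by labelled strain; circles are replicate 3, triangles replicate 4 and lines the mean of both. V966M/+ lies lowest in 7 of the panels and highest in that of TwdlT, and the libraries of V966M differ more than those of w for Cpr47Eg.

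In 51B/+ against V966M/+, 22 of the 106 genes were called (20.8%, against 6.07% of all genes), and all 22 were higher in 51B/+, where 4.52% of all genes were called higher. This comparison has the libraries labelled V966M/+ in common with the previous one. The 106 genes had a median of 1.09 on the log2 scale, against 0.03 for all genes. By family, 10 Cpr, 6 Lcp, 4 Ccp84A and 1 Twdl gene and Acp65Aa were called. Cpr67Fa2 had 225 and 118 CPM in 51B/+, against 4.13 and 1.45 CPM in V966M/+ (log2 fold change 5.92, SE 0.66, adjusted p = 0.0047). Cpr47Eg had 564 and 346 CPM in 51B/+, against 12.4 and 1.24 CPM in V966M/+ (log2 fold change 6.05, SE 1.45, adjusted p = 0.0797). Lcp65Ag1 had 27.9 and 8.4 CPM in 51B/+, against 0.655 and 0.182 CPM in V966M/+ (log2 fold change 5.36, SE 1.01, adjusted p = 0.0457). For these 3 genes all values of 51B/+ were above all values of V966M/+, which the rule for naming called genes required.

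Twdlalpha (X, 16742847 to 16744365), a Tweedle gene that shares exon positions with CG32568, had 9.88 and 0.744 CPM in 51B/+, against 0.197 and 0.0606 CPM in V966M/+ (log2 fold change 5.28, SE 1.34, adjusted p = 0.0881). Its 2 libraries of 51B/+ were 13.3-fold apart. Acp65Aa had 8.13 and 14.8 CPM in 51B/+, against 0.612 and 0.0303 CPM in V966M/+, from 28 and 1 counts (log2 fold change 5.02, SE 0.80, adjusted p = 0.0238). In this comparison 2 of 6 muscle markers (up and wupA), 1 of 8 epidermal and tracheal markers (serp) and 1 of 7 salivary gland markers (Sgs4) were also called higher. The gut markers summed to 581 and 1460 CPM in 51B/+, against 1719 and 1868 CPM in V966M/+. Of these markers Jon65Aiii was called lower by edgeR (log2 fold change -1.64, adjusted p = 0.0224). The median log2 fold change of the 5 gut markers was 0.38, so most of them were not lower. The part of these tissues in the result was not tested. The count was 6 without 51B/+ replicate 3 and 7 without V966M/+ replicate 4, where 0.882% and 1.08% of all genes were called, and 35 without V966M/+ replicate 3, where 6.66% were. It was 1 when only the libraries of 51B/+ and V966M/+ were fitted, where 0.485% of all genes were called. DESeq2 called 40, all higher, where it called 12.0% of all genes.

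The remaining comparisons set 51B against 51B/+ and 51B against V966M. In 51B against 51B/+ edgeR called no cuticle protein gene, and 0.0812% of all genes. At an unadjusted p under 0.05 there were 7, all higher in 51B, against 5.96% of all genes, and DESeq2 called 2, where it called 0.866% of all genes. In 51B against V966M edgeR called none either, and 0.118% of all genes. At an unadjusted p under 0.05 there were 13 of the 106, against 5.51% of all genes, and DESeq2 called 4 (3 higher, 1 lower), where it called 0.817% of all genes. On the log2 scale the medians were 0.34 for 51B against 51B/+ and 0.29 for 51B against V966M, against -0.03 for all genes in each.

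**Figure D5:**
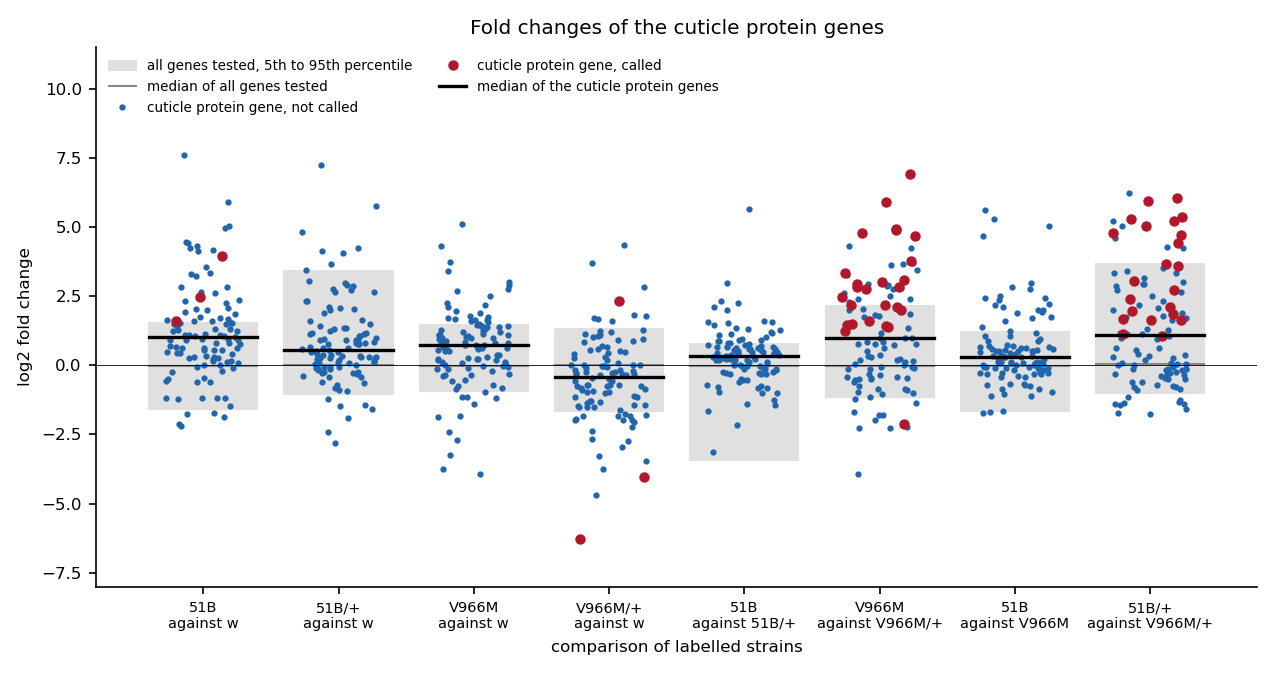
Fitted log2 fold changes of the 106 cuticle protein genes (points; large red points were called) in the 8 comparisons of labelled strains, with their median (black line) and, for all 13551 genes tested, the median (grey line) and the 5th to 95th percentile (grey box). The black line lies above the grey one in every comparison except V966M/+ against w, where it is at -0.41. Fold changes of genes with few counts in both libraries of a strain, such as TwdlO in w, depend on the fit and are no measured bound.

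The neighbouring copies Cpr67Fa1 and Cpr67Fa2 differed in their balance between strains. The ratio of Cpr67Fa1 to Cpr67Fa2 counts was 1.18 and 1.24 in 51B, 0.261 and 0.25 in 51B/+, 1.84 and 2.74 in V966M, and 0.503 and 0.729 in V966M/+, against 2.27 and 2.92 in w. In 51B/+ and V966M/+ Cpr67Fa2 had the more reads, and in the other strains Cpr67Fa1 had. The highest ratio in 51B/+ and V966M/+ was below the lowest in the other strains. Their summed level was 639 and 636 CPM in 51B, 284 and 147 CPM in 51B/+, 127 and 408 CPM in V966M, and 6.2 and 2.52 CPM in V966M/+, against 139 and 199 CPM in w. Reads common to both copies could have been lost or divided between them, and the ratio was computed after its values were seen and was not tested.

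Within a cluster the genes covered wide ranges of level and did not all vary alike. The following genes were chosen for description after their values were seen, and their values are given without a test. In the Cpr47E cluster on 2R (11251751 to 11278445), the abundant members Cpr47Ec and Cpr47Eg were lowest in V966M/+ and low in w. Cpr47Ec had 969 and 722 CPM in 51B, 1019 and 667 CPM in 51B/+, 625 and 985 CPM in V966M, and 159 and 9.55 CPM in V966M/+, against 333 and 266 CPM in w. Its libraries of V966M/+ lay below all others and were themselves 16.6-fold apart. Cpr47Ee, in the same cluster, ran the other way at a low level, with 0.325 and 0.199 CPM in 51B, against 1.33 and 0.633 CPM in w.

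The Cpr49A cluster on 2R held genes with opposite orders of strains. Cpr49Af had 81.3 and 14.8 CPM in V966M/+, against 141 and 204 CPM in w, and 187 to 491 CPM in the other strains. Cpr49Ac, less than 20 kb away, had 4522 and 4677 CPM in V966M/+, against 2391 and 2687 CPM in w. Libraries labelled V966M/+ were thus lowest for one gene of the cluster and highest for the other. Cpr49Ah ranged from 5.58 CPM in V966M/+ replicate 4 to 39.8 CPM in V966M replicate 3, and the replicates of 51B/+ alone had 10.5 and 25.8 CPM.

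In the Lcp65A cluster the order of strains depended on the gene. Lcp65Ag1, Lcp65Ag2, Lcp65Ag3, Lcp65Af and Lcp65Ae had their highest value in 51B replicate 3. Lcp65Ag1 and Lcp65Ag3 are close copies, and reads common to both could have been assigned to either or lost. The ratio of Lcp65Ag1 to Lcp65Ag3 counts lay between 0.231 and 2. Lcp65Af had 19.6 and 7.31 CPM in 51B, against 0.438 and 0.422 CPM in w. Cpr65Av and Cpr65Aw, which lie between Lcp65Ae and Lcp65Ad, had their highest values in V966M replicate 4 instead, at 260 and 134 CPM. For Cpr65Av, 51B had 89.0 and 155 CPM, against 78.0 and 128 CPM in w, so the strains overlapped.

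Several Tweedle genes differed widely between the libraries of a strain. TwdlX, on X, had 204 and 135 CPM in 51B, 263 and 84.6 CPM in 51B/+, 136 and 188 CPM in V966M, and 53.6 and 7.61 CPM in V966M/+, against 71.2 and 65.6 CPM in w. In 51B/+ its value in replicate 4 was closer to w than to replicate 3. TwdlU, on 3R, kept to between 0.675 and 1.42 CPM in all 10 libraries. Among Cpr genes, Cpr67B on 3L was likewise even, at 127 to 216 CPM, and had 152 and 190 CPM in V966M/+, against 165 and 186 CPM in w, while Cpr92F on 3R had 25.7 to 61.0 CPM. The gap of the libraries labelled V966M/+ was therefore not a feature of every cuticle protein gene.

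Beside the cuticle protein genes, other genes of the cuticle were examined as lists. Of 32 tested genes of other cuticle proteins and the cuticle matrix, 7 were higher and 1 was lower in V966M against V966M/+, and 8 were higher and 1 was lower in 51B/+ against V966M/+. Of all genes, 5.67% were called higher and 1.03% lower in the first of these comparisons, and 4.52% higher and 6.07% in either direction in the second. The obstructor genes encode chitin-binding proteins of the cuticle matrix. Among them obst-E had 174 and 332 CPM in V966M, against 47.1 and 15.8 CPM in V966M/+ (log2 fold change 3.01, adjusted p = 0.0364 by edgeR's quasi-likelihood test). Vajk2 and Vajk3, cuticle protein genes outside the families above, were higher in V966M, with log2 fold changes of 1.86 and 1.98. The exception was obst-G, with 22.1 and 23.8 CPM in V966M, against 44.4 and 43.2 CPM in V966M/+ (log2 fold change -0.93, adjusted p = 0.0391). It was also higher in V966M/+ against w (1.21), a comparison in which Cda9, a chitin deacetylase gene, was lower (-1.11). In the 5 other comparisons no gene of this list was called.

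Of 33 tested genes for chitin synthesis, modification and turnover, 5 were called higher and none lower in V966M against V966M/+ (5.67% and 1.03% of all genes). These were verm and serp, which encode chitin deacetylases and are also among the epidermal and tracheal markers, mmy, which encodes the enzyme that makes the activated sugar for chitin synthesis, Cht7, a chitinase gene, and exp, which is needed for normal tracheal tubes. The genes verm and mmy had log2 fold changes of 1.26 and 1.23. In 51B/+ against V966M/+ 5 were higher (4.52% of all genes) and 2 lower (211 of all 13551 genes were called lower). The lower ones were the chitinase genes Cht5 and Cht11. Cht5 had 23.3 and 41.0 CPM in 51B/+, against 69.8 and 72.4 CPM in V966M/+ (log2 fold change -1.15, adjusted p = 0.0816). Gnpnat, which encodes an acetyltransferase of the same sugar pathway, was called higher in 51B against w (0.86) and in V966M/+ against w (1.0).

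Where genes for tanning or hormone timing were called, their share was near that of all genes. Of 20 tested genes for cuticle tanning and crosslinking, 1 was called in any comparison, namely yellow-f2, a gene of melanin synthesis, which was higher in V966M against V966M/+ (1.56) and in 51B/+ against V966M/+ (1.75). Of all genes, 6.7% were called in the first of these comparisons and 6.07% in the second. Of 24 tested genes of the ecdysone response and moult timing, 1 was called in any comparison. It was ftz-f1, a nuclear receptor gene of the prepupal period, which had 12.9 and 11.3 CPM in 51B/+, against 7.06 and 4.97 CPM in V966M/+ (log2 fold change 1.01, adjusted p = 0.0613). In that comparison 6.07% of all genes were called. The calls of list genes also rested on single libraries. Of the 23 calls that the rule for named genes took from these lists, 22 were lost when at least 1 of the libraries compared was left out, and the exception was obst-E in 51B/+ against V966M/+. Gnpnat in 51B against w was lost without any 1 of the 4 libraries, with an adjusted p of up to 0.495, and ftz-f1 was lost without 51B/+ replicate 3 (adjusted p = 0.267) or V966M/+ replicate 4 (adjusted p = 0.314).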

How the data were processed

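Raw read counts per gene were deposited by the authors for 10 libraries of polyadenylated RNA (50-base single-end reads, unstranded). They had trimmed reads with cutadapt 1.10, aligned them to dm6 with HISAT2 2.0.4 and counted exons per FlyBase gene (release 6.11) with featureCounts 1.5.0-p3, without normalization or pooling. Coordinates came from the Ensembl annotation of the same assembly (17210 of 17402 genes).

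Genes with at least 10 counts over all libraries were normalized with TMM and tested with edgeR 4.0.16 (glmQLFit with robust estimation, glmQLFTest; R 4.3.3), by strain alone, in a single fit of all 10 libraries. The SE is the absolute log2 fold change over the root of the F statistic. DESeq2 1.42.0, RLE factors, filterByExpr, no filter, a threshold of 0.05, fits of 2 strains, a replicate block and leaving out each library were the alternatives.

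The cuticle protein genes and all lists were chosen with earlier results of these data known. Named genes were AGO2, the 10 with the highest level per kb, up to 4 called per direction and comparison (mean of at least 1 CPM, no overlap of libraries), the 4 with the widest replicate gap, and up to 3 called per direction from each list. Called genes given only by a fold change are further examples. P-values rest on the spread between the 2 libraries of a strain, estimated jointly over all strains in the single fit. They do not rest on the libraries of the compared strains alone. Promoter and protein sequences were not used here.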

Additional observations from a re-analysis of the deposited data

How the results depend on the processing

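The number of cuticle protein genes called depended on the test and on single libraries. At an adjusted p under 0.05, edgeR called 1 in 51B against w (0.362% of all genes), 11 in V966M against V966M/+ (2.3%) and 14 in 51B/+ against V966M/+ (2.19%). DESeq2 called 20 in 51B against w, 8 in 51B/+ against w, 14 in V966M/+ against w, 2 in 51B against 51B/+, 43 in V966M against V966M/+, 4 in 51B against V966M and 40 in 51B/+ against V966M/+. It gave no adjusted p for 13 to 32 of the 106 genes, depending on the comparison. With filterByExpr, which kept 78 of the genes, 5 were called in 51B against w (1.05% of all genes) and 1 in 51B/+ against w (2.64%), and the median was 1.47 in V966M against V966M/+, -0.74 in V966M/+ against w and 0.15 in 51B against V966M. With only the compared strains fitted, 34, 3, 0, 1 and 1 were called in 51B against w, 51B/+ against w, V966M against V966M/+, 51B against V966M and 51B/+ against V966M/+ (5.74%, 1.07%, 0.141%, 0.36% and 0.485% of all genes), and the median in 51B against V966M was 0.16, from fewer residual degrees of freedom.

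Leaving out 1 library at a time, counts ran from 0 to 1 in 51B against w, 0 to 8 in 51B/+ against w, 1 to 25 in V966M/+ against w, 0 to 37 in V966M against V966M/+ and 6 to 35 in 51B/+ against V966M/+. The medians ran from 0.41 to 0.87 in 51B/+ against w, 0.48 to 0.95 in V966M against w, 0.15 to 0.52 in 51B against 51B/+, 0.17 to 0.44 in 51B against V966M, -1.08 to -0.14 in V966M/+ against w, 0.88 to 1.73 in V966M against V966M/+ and 0.79 to 1.68 in 51B/+ against V966M/+. RLE factors changed no call of a named gene, and no result reversed under any alternative that was run. The causes were not tested.

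The differences between replicates correlated positively across genes in all 10 pairs of strains (r between 0.0562 and 0.356), but only 7 of 10 were over 0.1, so the numbers were not taken to pair the samples. With the replicate block, 3 of the 106 genes were called in 51B/+ against w, in place of 0, and the other counts of cuticle protein genes stayed within 1.5 times. Over all genes the block called 3.51% in 51B/+ against w, in place of 1.79%, 13.3% in V966M against V966M/+, in place of 6.7%, and more genes than without it in the other 6 comparisons. Depth limits genes under 1 CPM, 42 of the 106.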
